A study of Mus musculus with 18 samples.

Results

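The 10 basement membrane genes described here, which encode its structural and associated proteins, were followed through mouse embryonic stem cells (ESCs), trophoblast stem cells (TSCs) and extra-embryonic endoderm (XEN) cells in normoxia and hypoxia. The 10 genes, Col4a1, Col4a2, Lama1, Lama5, Lamb1, Lamc1, Nid1, Nid2, Hspg2 and Sparc, were chosen by symbol, and all 10 were present in each of the 3 expression tables, which hold 14804 genes in all. Bulk RNA-seq was performed on 18 libraries, 2 biological replicates of each cell type in normoxia (20% oxygen) and on day 2 and day 7 of hypoxia (2% oxygen). ESCs were of the wild-type E14 line and grew without feeders on gelatin in serum and LIF, TSCs grew on a feeder layer, and XEN cells grew on gelatin in medium conditioned by mouse embryonic fibroblasts. The labels name no line for the TSCs and XEN cells. The comparison asks how each stem cell type, cultured at matched density, responds to acute and to prolonged hypoxia.

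The basement membrane is a thin sheet of extracellular matrix on which epithelia rest. Laminin, a trimer of an alpha, a beta and a gamma chain, forms a polymer at the cell surface, and type IV collagen forms a second network that nidogen and the heparan sulphate proteoglycan perlecan link to the first. In the early mouse embryo the primitive endoderm and the parietal endoderm derived from it secrete large amounts of these proteins, the latter into Reichert's membrane next to the trophoblast. Lama1 and Lama5 encode laminin alpha chains, Lamb1 a beta chain and Lamc1 a gamma chain. Col4a1 and Col4a2 encode the chains of the common type IV collagen trimer, Nid1 and Nid2 the nidogens, Hspg2 perlecan, and Sparc a collagen-binding glycoprotein.

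The genes lie on 9 chromosomes, and Col4a1 and Col4a2 are the only pair of neighbours. In GRCm38 with the GENCODE annotation, Col4a1 spans chr8:11198423-11312826 on the minus strand and Col4a2 spans chr8:11312805-11449287 on the plus strand, so that they are transcribed away from a shared start region and their first exons overlap by 22 bases. The laminin genes lie at chr17:67697259-67822647 (Lama1, plus), chr2:180176373-180225859 (Lama5, minus), chr12:31265234-31329644 (Lamb1, plus) and chr1:153218922-153332786 (Lamc1, minus). The nidogen genes lie at chr13:13437551-13512269 (Nid1, plus) and chr14:19751265-19811787 (Nid2, plus). Hspg2 lies at chr4:137468769-137570630 on the plus strand and Sparc at chr11:55394500-55423183 on the minus strand. RefSeq promoter windows of 300 bases, from 250 bases before a RefSeq start site to 50 after it, were found for 7 of the 10 genes. For Lama1, Lamc1 and Nid2 only the names are given. The window of Sparc (chr11:55420031-55420330, minus strand) lies inside the span given above and not at its start. The windows of Col4a1 (chr8:11312777-11313076, minus strand) and Col4a2 (chr8:11312555-11312854, plus strand), which overlap by 78 bases, and that of Nid1 (chr13:13437352-13437651, plus strand) are shown in GRCm38.p6 because the results turn on these genes. Capitals mark matches, on either strand, to the motif CCAAT, to the motif GGGCGG, to the motif ACGTG and to the motif GCGTG.
Col4a1: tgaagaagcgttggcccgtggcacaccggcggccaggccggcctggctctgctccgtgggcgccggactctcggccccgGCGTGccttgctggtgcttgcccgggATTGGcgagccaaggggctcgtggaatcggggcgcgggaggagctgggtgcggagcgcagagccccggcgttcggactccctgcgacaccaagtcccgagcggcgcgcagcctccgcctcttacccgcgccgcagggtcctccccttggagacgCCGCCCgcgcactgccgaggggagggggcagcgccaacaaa
Col4a2: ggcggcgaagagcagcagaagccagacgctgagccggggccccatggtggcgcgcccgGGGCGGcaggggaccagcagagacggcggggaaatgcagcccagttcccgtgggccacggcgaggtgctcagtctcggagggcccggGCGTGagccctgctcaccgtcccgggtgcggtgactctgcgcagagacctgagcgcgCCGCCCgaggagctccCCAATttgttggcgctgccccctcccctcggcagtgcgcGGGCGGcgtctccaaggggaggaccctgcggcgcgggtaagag
Nid1: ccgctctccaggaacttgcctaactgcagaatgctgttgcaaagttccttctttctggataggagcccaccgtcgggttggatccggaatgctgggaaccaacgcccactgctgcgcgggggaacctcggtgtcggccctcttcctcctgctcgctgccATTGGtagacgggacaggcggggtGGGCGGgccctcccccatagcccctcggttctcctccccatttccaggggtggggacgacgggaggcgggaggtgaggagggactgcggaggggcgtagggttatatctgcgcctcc

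Col4a1 and Col4a2 each held CCAAT as well as GGGCGG and a match to GCGTG, and Nid1 held CCAAT and GGGCGG. Over the 7 windows, CCAAT occurred in 4 and GGGCGG in 6. The GGGCGG of Col4a1 lies in the bases shared with Col4a2 and counts for both. Either of the motifs ACGTG and the like GCGTG occurred in 4, and either of the motifs AGATAA and the like TGATAA in 0. Over all 32851 windows in the table the shares were 37.4%, 35.7%, 43.8% and 18.6%. The 7 windows held 55.3% (Sparc) to 74.0% (Col4a1) of G and C bases, beside a median of 52.7% over all windows. Matches on the 2 strands were counted alike, and ACGTG overlaps its own reverse complement in CACGTG. These are matches of letters and were tied to no measurement of binding.

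The deposited values are TPM, and whole reads recovered from them came to between 35592641 and 75204029 per library. Sums of defining markers were highest in the labelled cell type, although some markers were also listed in others. Pou5f1, which maintains pluripotency, was at 1568 TPM or more in every ESC library and Sox17, an endoderm regulator, at 1009 TPM or more in every XEN library. Cdx2 and Eomes, regulators of trophoblast stem cells, were listed in the TSC and ESC tables and not in the XEN table, and Pou5f1 was not in the TSC table. The trophoblast stem cell markers summed to 13791 to 27375 TPM in TSCs, 1610 to 3131 TPM in XEN cells and 186 to 506 TPM in ESCs. Of 8 pluripotency markers, 4 were listed in XEN cells, Pou5f1 among them. Those 4 summed to 631 to 1198 TPM there, against 12249 to 15778 TPM for all 8 in ESCs. The 15 marker genes of fibroblasts, among them the fibrillar collagens, summed to between 40.2 and 56.1 TPM in ESCs (9 genes listed) and between 0.769 and 2.01 TPM in XEN cells (3 listed). In TSCs all 15 were listed and their sum varied 8.58-fold between libraries, at 2069 and 309 TPM in the normoxic libraries, 241 and 1081 TPM on day 2, and 512 and 307 TPM on day 7. TSC normoxia replicate 1 and day 2 replicate 2 therefore stand apart from the other TSC libraries. In bulk libraries, a change in the number of cells of a type cannot be told apart from a change in RNA per cell.

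XEN cells devoted between 7.38% and 11.4% of their reads to the 10 genes, TSCs between 0.712% and 0.860% and ESCs between 0.238% and 0.323%. To set genes and cell types side by side, recovered reads were divided by summed exon length and scaled to a sum of 1000000 over the 10899 genes listed in all 3 tables. This level is a description, because the authors normalized each table separately, and no test was made between cell types. On this scale Col4a1, Lamc1, Sparc and Lama1 held ranks 2, 3, 4 and 5 of the 10899 genes in XEN cells. Lamb1 held rank 10 and Col4a2 rank 13.

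**Figure D1:**
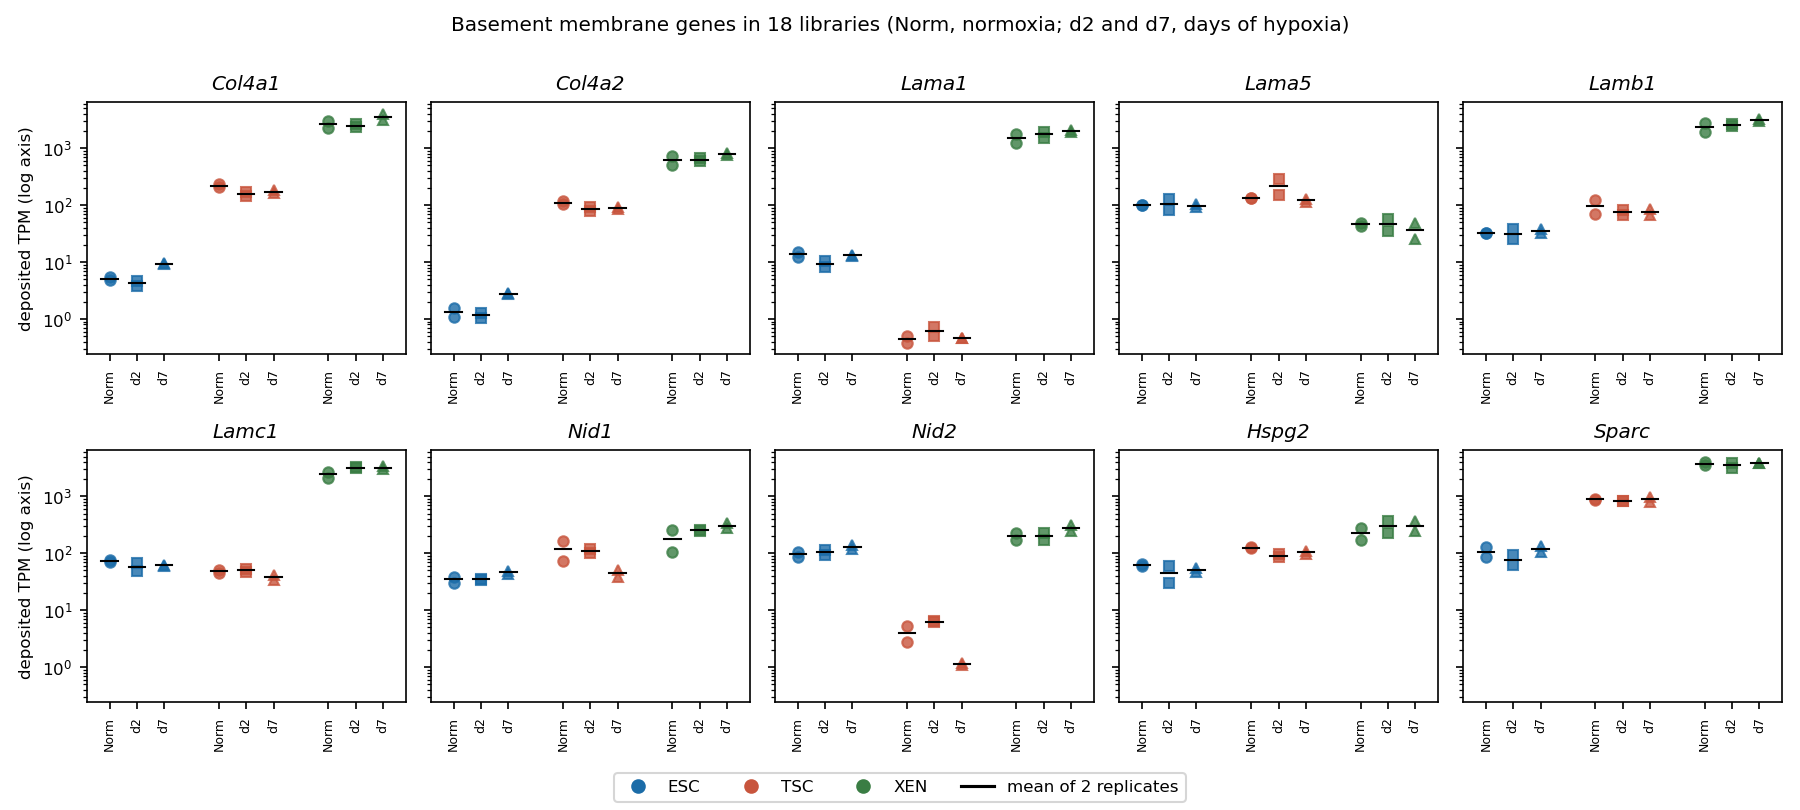
Deposited TPM (log axis) of each gene in every library, by cell type and condition, with the mean of the 2 replicates as a line. Lamb1, Lamc1 and the collagen pair were highest in XEN cells in every library, whereas Lama5 was lowest there and Lama1 and Nid2 were lowest in TSCs.

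The type IV collagen genes spanned the widest range between ESCs and XEN cells. Per exon length, Col4a1 had a median level of 27.0 in ESCs (range over 6 libraries 20.3 to 51.2), 909 in TSCs (713 to 1197) and 13602 in XEN cells (10760 to 19381). Its median in XEN cells was 503-fold that in ESCs and 14.96-fold that in TSCs. Col4a2 followed the same order at a lower level, with medians of 10.1, 640 and 4450. For both genes the ranges of the 3 cell types did not overlap.

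Among the laminin genes, the alpha chains differed in opposite directions between cell types. Lama1 had a median level of 7425 in XEN cells (5005 to 8570), 57.0 in ESCs (37.7 to 65.2) and 2.11 in TSCs (1.61 to 3.05), where between 162 and 356 reads per library were counted. Lama5, in contrast, had medians of 193 in TSCs (174 to 403), 150 in ESCs (122 to 190) and 60.9 in XEN cells (34.6 to 77.3). The ranges of Lama5 in TSCs and ESCs overlapped, and both lay above that in XEN cells. Lama5 was thus the only member of the 10 with its lowest level in XEN cells. Lamb1 had medians of 5483 in XEN cells, 165 in TSCs and 72.6 in ESCs, with no overlap. Lamc1 had a median of 13025 in XEN cells, above the overlapping ranges of ESCs (median 308) and TSCs (median 208).

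The nidogens diverged in TSCs. Nid2 had a median level of 824 in XEN cells (597 to 1126), 444 in ESCs (349 to 564) and 15.5 in TSCs (4.25 to 24.9), without overlap. Nid1 differed less, with medians of 847 in XEN cells (349 to 1130), 305 in TSCs (146 to 570) and 138 in ESCs (116 to 181), and its ranges overlapped between each cell type and the next in order. Hspg2 had medians of 580 in XEN cells, 255 in TSCs and 142 in ESCs, and Sparc of 8960, 2128 and 256. The ranges of both genes were separate in the 3 cell types.

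**Figure D2:**
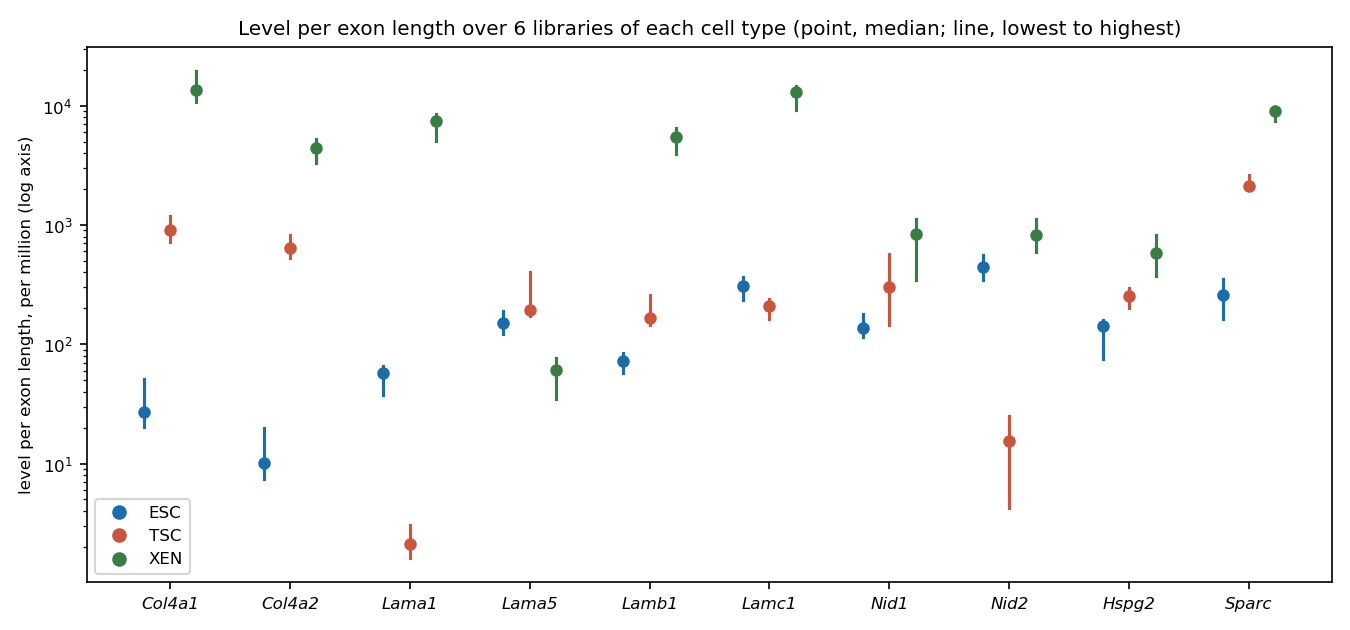
Level per exon length (scaled to a sum of 1000000 over 10899 shared genes, log axis) of the 10 genes, with the median and the range over 6 libraries of each cell type. In XEN cells 9 genes have their highest median and Lama5 its lowest.

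The order of the genes within a cell type differed accordingly. In ESCs Nid2 had the highest median, followed by Lamc1 and Sparc, and the ranges of neighbours in the order were separate only between Nid1 and Lamb1 and between Col4a1 and Col4a2. In TSCs Sparc lay above Col4a1 without overlap, Nid2 and Lama1 each lay below the gene before it without overlap, and the genes from Col4a1 to Lamb1 each overlapped the next. In XEN cells the 6 genes from Col4a1 to Col4a2 formed an overlapping series that lay above Nid1, and Lama5 lay below Hspg2. Use of the longest transcript in place of summed exons changed the medians by a factor between 0.729 and 1.275 and with it the order of some genes. Sparc (307) then lay above Lamc1 (243) in ESCs, and Lamb1 (6964) above Lama1 (5602) in XEN cells.

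Within a library, the balance of partners can be given as a share per exon length, which does not depend on the scaling between tables. Lama5 made up between 69.4% and 80.7% of the summed Lama1 and Lama5 level in ESCs, between 98.6% and 99.5% in TSCs, and between 0.446% and 1.13% in XEN cells. Lama3, which encodes a further alpha chain, and other alpha chain genes were left out of this sum. Nid2 made up between 72.6% and 78.4% of the nidogens in ESCs, between 2.29% and 6.23% in TSCs and between 42.0% and 63.9% in XEN cells. The Col4a1 share of the collagen pair was more alike, at 69.1% to 76.7% in ESCs, 57.2% to 61.0% in TSCs and 74.5% to 78.8% in XEN cells. Col4a1 thus exceeded Col4a2 in all 18 libraries, by 1.34-fold to 3.72-fold.

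**Figure D3:**
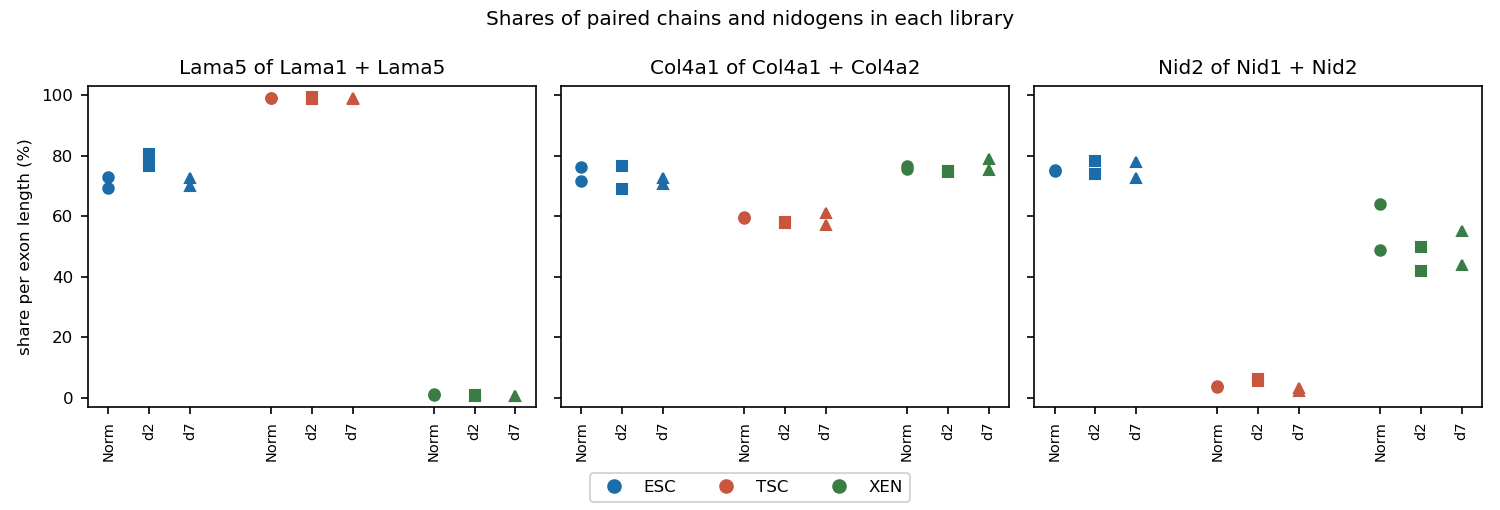
Share per exon length (%) of Lama5 in Lama1 and Lama5, of Col4a1 in Col4a1 and Col4a2, and of Nid2 in Nid1 and Nid2, in each library by cell type and condition. The cell types separate on the laminin and nidogen shares, and on the collagen share TSCs lie below the other cell types.

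In ESCs, no member was differentially expressed (DE) on day 2, and on day 7 the type IV collagen pair lay above normoxia without passing the threshold. DE here means that limma gave a fold change above 1.5 with a p, adjusted by Benjamini and Hochberg's method, of 0.1 or less. It was fitted on log2(TPM + 0.5), a scale on which the change of low genes is understated. On day 2, 0 of 10 members were DE, as were 0% of all 12271 genes tested. The study's count test (edgeR) did call genes in ESCs on this day at the same thresholds, so the 0% describes the limma fit. Of the members, 1 (Lama1) had an unadjusted p under 0.05, beside 5.05% of all genes. The fit by voom on recovered reads called 0 members as well. Lama1 was at 14.7 and 12.4 TPM in normoxia and at 8.33 and 10.3 TPM on day 2, a log2 fold change of -0.53 ± 0.18 (SE; adjusted p = 0.873, limma). Both day 2 libraries lay below both normoxic libraries for 3 members (Col4a1, Lama1 and Lamc1) and above them for 0, against 14.4% and 16.4% of all genes. The median log2 fold change of the members was -0.19, beside 0.01 over all genes.

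On day 7, Col4a1 was at 9.08 and 9.63 TPM in ESCs, against 5.4004 and 4.78 TPM in normoxia and 4.59 and 3.86 TPM on day 2. Col4a2 was at 2.82 and 2.704 TPM on day 7, against 1.58 and 1.10 TPM in normoxia and 1.04 and 1.29 TPM on day 2. For both genes, the day 7 libraries lay above all 4 others. The log2 fold change against normoxia was 0.82 ± 0.18 for Col4a1 (adjusted p = 0.147, limma) and 0.84 ± 0.21 for Col4a2 (adjusted p = 0.205). Both genes were called with TPM computed on exon lengths (adjusted p = 0.042 and 0.079) and by voom on recovered reads (0.058 for each). They were also called when only the 4 libraries compared were fitted (0.039 and 0.071). In these 3 fits, in the same order, 1.03%, 0.905% and 2.61% of all genes were DE. Without either day 2 replicate both were called too, in fits that called more genes over the whole table than the main fit. Neither was called with median-ratio scaling (adjusted p = 0.178 and 0.183), with the replicate number as a block or without the mean-variance trend. Nor was either called without any 1 of the 4 libraries compared, in fits that called fewer genes over the whole table. Over single libraries left out, the log2 fold change was 0.74 to 0.90 for Col4a1 and 0.65 to 1.03 for Col4a2. Against day 2, the log2 fold change was 1.06 ± 0.18 for Col4a1 (adjusted p = 0.142) and 0.98 ± 0.21 for Col4a2 (adjusted p = 0.312). Both were again called on exon lengths and by voom, beside 0.233% and 0.212% of all genes.

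The other members in ESCs on day 7 had adjusted p-values of 0.509 or more. Of the 10, 0 were DE against normoxia, beside 0.758% of all genes. An unadjusted p under 0.05 was found for 4 (Col4a1, Col4a2, Nid1 and Nid2), beside 8.04% of all genes. The nidogens were at 43.7 and 48.5 TPM (Nid1) and 141 and 118 TPM (Nid2) on day 7, against 38.8 and 30.5 TPM and 107 and 84.8 TPM in normoxia, with log2 fold changes of 0.42 ± 0.15 and 0.44 ± 0.17. Lama5, the more abundant alpha chain of ESCs, stayed between 80.6 and 128 TPM over the 6 libraries. Both day 7 libraries lay above both normoxic ones for 4 members and below them for 2 (Lamc1 and Hspg2), beside 23% and 17.5% of all genes. Against day 2, 0 members were DE (0.179% of all genes) and 5 had an unadjusted p under 0.05 (4.26% of all genes). Libraries did not overlap for 6 higher and 0 lower members, beside 15.2% and 8.8% of all genes. Sparc was among these 6, at 104 and 134 TPM on day 7 and 91.5 and 62.5 TPM on day 2. Its normoxic libraries, at 128 and 86.5 TPM, overlapped those of day 7.

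In TSCs, Nid1 and Nid2 were lower on day 7 than on day 2, and they were the only members DE in any of the 9 comparisons. Nid2 was at 1.08 and 1.20 TPM on day 7, against 6.08 and 6.47 TPM on day 2 and 5.28 and 2.73 TPM in normoxia. Nid1 was at 50.2 and 38.5 TPM on day 7, against 99.3 and 117 TPM on day 2 and 161 and 72.7 TPM in normoxia. For both genes the day 7 libraries lay below all 4 others. From day 2 to day 7 Nid2 fell by 2.05 ± 0.33 and Nid1 by 1.28 ± 0.37 on the log2 scale (adjusted p = 0.022 and 0.079, limma). These 2 members of 10 stand beside 16.2% of all 12481 genes that were DE between these days and 13.8% that were DE and lower, so the members' share is near that of all genes.

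The fall of the nidogens went with other shifts in the TSC libraries, whose part in it was not tested. The median of all genes was -0.24 between day 7 and day 2 and -0.18 between day 7 and normoxia, and a median-ratio scaling moved these to 0.02 and -0.00. Relative to the median of all genes, Nid2 was lower by 1.81 and Nid1 by 1.04. Under that scaling Nid2 kept its call (log2 fold change -1.82, adjusted p = 0.032) and Nid1 lost it (-0.999, adjusted p = 0.116). The split of DE genes over the whole table moved from 296 higher and 1723 lower to 738 higher and 968 lower. Of the 9 trophoblast stem cell markers, 6 were DE and lower on day 7 than on day 2 (Cdx2, Elf5, Eomes, Esrrb, Gata3 and Tead4) and Krt8 was DE and higher. The 14 fibroblast markers tested had 0 DE genes and a median of -0.11.

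The TSC calls depended on single libraries, for the nidogens and over the whole table. With any 1 of the day 2 and day 7 libraries left out, at least 1 nidogen lost its call. Fewer genes of the whole table were DE in each of these fits, which have a single library on that day. Over single libraries left out, the log2 fold change was -2.10 to -2.00 for Nid2 and -1.47 to -1.09 for Nid1. For Lama5 it was -1.23 to -0.34. With both libraries highest in fibroblast markers left out, the log2 fold changes were -2.00 for Nid2 and -1.17 for Nid1. This alternative was added after the data were seen. That fit has a single library each in normoxia and on day 2, which is assumed to vary like the day 7 pair.

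**Figure D4:**
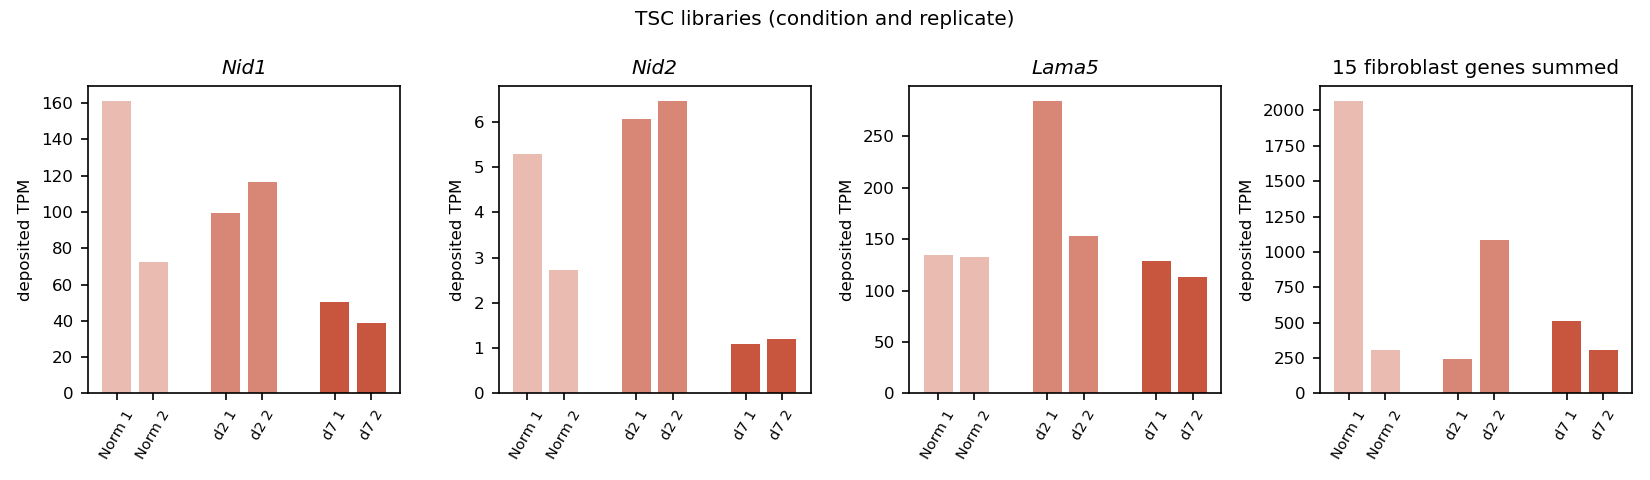
Deposited TPM in the 6 TSC libraries of Nid1, Nid2, Lama5 and of 15 fibroblast genes summed (bars start at 0; each bar is 1 library). Both day 7 libraries are lowest for Nid1 (50.2 and 38.5) and Nid2 (1.08 and 1.20), while the fibroblast sum is highest in normoxia replicate 1 and day 2 replicate 2.

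Against normoxia, the day 7 change of the nidogens in TSCs did not pass the test. The log2 fold change was -1.40 ± 0.33 for Nid2 (adjusted p = 0.220, limma) and -1.29 ± 0.37 for Nid1 (adjusted p = 0.292). The normoxic library with the high fibroblast sum was also the higher one for both nidogens. Without it the values were -0.98 and -0.72, and without the other normoxic library they were -1.82 and -1.86. Each of these fits has a single normoxic library, so only the log2 fold changes are given. Of the 10 members, 0 were DE on day 7 against normoxia (0.385% of all genes), and voom called 0. An unadjusted p under 0.05 was found for 2, beside 10.4% of all genes. Both day 7 libraries lay below both normoxic libraries for 7 members and above them for 0, beside 32.3% and 8.98% of all genes. The 7 were Col4a1, Col4a2, Lama5, Lamc1, Nid1, Nid2 and Hspg2, with a median over the 10 members of -0.31 beside -0.18 over all genes. Under median-ratio scaling that member median was -0.11, and Lama5 changed sign.

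On day 2, the type IV collagen genes and Hspg2 lay lower in TSCs and Lama5 higher, and none passed the test. Col4a1 was at 143 and 169 TPM on day 2 against 207 and 234 TPM in normoxia, a log2 fold change of -0.50 ± 0.18 (adjusted p = 0.328, limma). Col4a2 was at 78.0 and 91.2 TPM against 104 and 118 TPM (-0.39 ± 0.18), and Hspg2 was at 95.4 and 85.1 TPM against 127 and 124 TPM (-0.48 ± 0.17). Lama5 was at 285 and 153 TPM on day 2 against 135 and 133 TPM in normoxia (0.64 ± 0.29, adjusted p = 0.407), and day 2 replicate 1 carried most of this. Of the 10 members, 0 were DE (0.2% of all genes), and voom called 0. An unadjusted p under 0.05 was found for 2, beside 13.1% of all genes. Libraries did not overlap for 3 higher members (Lama1, Lama5 and Nid2) and 4 lower ones (Col4a1, Col4a2, Hspg2 and Sparc), beside 30.6% and 16.9% of all genes. Between day 7 and day 2, libraries did not overlap for 1 higher member (Hspg2) and 5 lower ones, beside 14.3% and 44.9% of all genes. With both libraries highest in fibroblast markers left out, the log2 fold change of Lama5 was 1.10 on day 2, from a single library in each condition.

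Sparc was the most abundant member in TSCs. It was at 898 and 871 TPM in normoxia, 814 and 822 TPM on day 2, and 807 and 985 TPM on day 7. Its log2 fold change on day 7 against normoxia was 0.01 ± 0.18.

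In XEN cells, 0 of 10 members were DE on either day, and on day 7 most lay above normoxia. Nid1 had the largest log2 fold change, 0.89 ± 0.38 on day 7 (adjusted p = 0.563, limma). It was at 104 and 258 TPM in normoxia, 254 and 250 TPM on day 2, and 275 and 338 TPM on day 7, so that normoxia replicate 1 stood apart from the other 5 libraries. Without normoxia replicate 1 the log2 fold change was 0.24, and without normoxia replicate 2 it was 1.54. Each of these fits has a single normoxic library. All 10 members were higher in normoxia replicate 2 than in replicate 1, with a median log2 difference of 0.46 beside 0.01 over all genes.

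Col4a1 was at 2284 and 3060 TPM in normoxic XEN cells, 2329 and 2663 TPM on day 2, and 4058 and 3111 TPM on day 7 (log2 fold change on day 7, 0.43 ± 0.22). Col4a2 was at 515 and 730 TPM in normoxia and 810 and 759 TPM on day 7 (0.35 ± 0.20). For both genes the day 7 libraries lay above the other 4. The chains of the laminin trimer had log2 fold changes of a like size, none of which passed the test. Lama1 was at 1243 and 1769 TPM in normoxia and 1915 and 2131 TPM on day 7 (0.45 ± 0.22), Lamb1 at 1934 and 2736 TPM and 3042 and 3208 TPM (0.44 ± 0.20), and Lamc1 at 2140 and 2717 TPM and 2995 and 3408 TPM (0.41 ± 0.18). Lama5 was the exception, at 42.3 and 49.1 TPM in normoxia and 25.6 and 47.9 TPM on day 7 (-0.37 ± 0.34). Over single libraries left out, the day 7 log2 fold change was 0.22 to 0.64 for Col4a1 and 0.10 to 0.61 for Col4a2. For Lama1, Lamb1 and Lamc1 it was 0.19 to 0.70, 0.19 to 0.69 and 0.23 to 0.58.

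Over the 10 members in XEN cells, both day 7 libraries lay above both normoxic ones for 7 and below them for 0, beside 17.5% and 23.9% of all 10894 genes. The median log2 fold change was 0.43, beside -0.03 over all genes. On day 7 0.11% of all genes were DE, on day 2 0%, and between the days 0.0367%, and 0 members were called in each comparison. In these comparisons, in the same order, 0 members had an unadjusted p under 0.05 beside 982, 846 and 1295 genes over the table, and voom called 0. On day 2 libraries did not overlap for 1 higher member, Lamc1 (2140 and 2717 TPM against 3304 and 3100 TPM), and for 0 lower ones, beside 19.6% and 21.4% of all genes. Between day 7 and day 2 they did not overlap for 5 higher and 0 lower members, beside 21.7% and 25.9% of all genes. Both day 7 libraries gave a larger share of reads to the 10 genes, 11.4% and 11.1%, than the 4 others (7.38% to 9.84%).

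**Figure D5:**
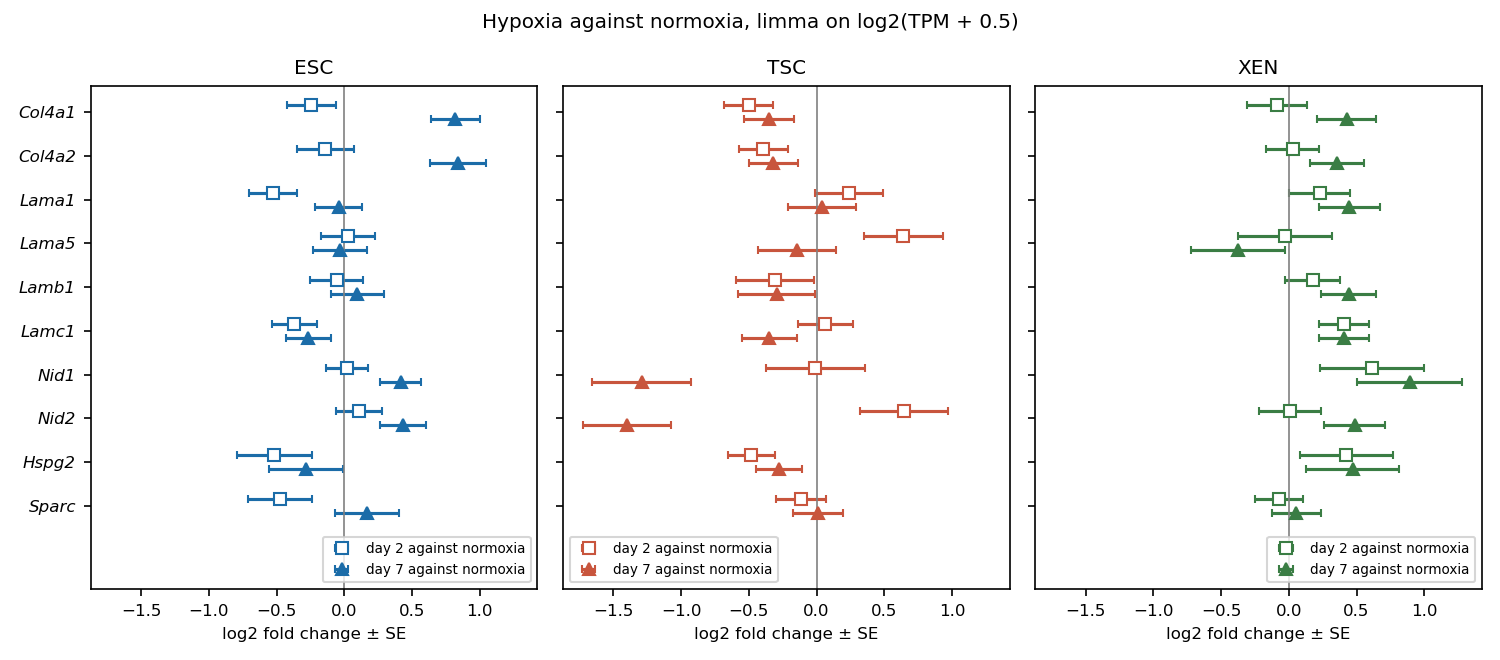
Log2 fold change (± SE) of each member on day 2 (open squares) and day 7 (filled triangles) of hypoxia against normoxia in the 3 cell types, from limma on log2(TPM + 0.5), with 2 libraries per condition. The day 7 values lie near 0.82 for the collagen pair in ESCs, below -1.2 for the nidogens in TSCs and between 0.35 and 0.89 for 8 of 10 genes in XEN cells, and none of these passed the test against normoxia.

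The other genes of the pathway were taken from 4 lists: 28 other basement membrane genes, 16 matrix receptors, 18 genes of collagen modification and cross-linking, and 17 genes of matrix turnover. In ESCs on day 7 against normoxia, 1 gene of the 4 lists was DE, beside 0.758% of all genes. In the order of the lists, 12, 15, 16 and 15 genes were tested. Loxl4, a lysyl oxidase-like cross-linking enzyme, was at 2.64 and 1.77 TPM against 0.488 and 0.512 TPM in normoxia (log2 fold change 1.42 ± 0.23, adjusted p = 0.055, limma). P4ha1, a subunit of the collagen prolyl hydroxylase, had a log2 fold change of 1.67 ± 0.35 (adjusted p = 0.119). All 15 turnover genes tested had a log2 fold change above 0, with a median of 0.45 beside 0.02 over all genes and 0 DE. Of the fibroblast markers, the fibrillar collagen gene Col1a1 was DE in these ESCs, at 15.1 and 6.05 TPM on day 7 against 1.58 and 1.53 TPM (log2 fold change 2.296), and the list's other 5 tested genes were not.

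In TSCs 0 genes of the 4 lists were DE against normoxia on either day, and 10 were DE between day 7 and day 2, namely 3 of 17 other basement membrane genes, 3 of 16 receptors, 3 of 18 collagen modification genes and 1 of 17 turnover genes tested, beside 16.2% of all genes. Of the 17 other basement membrane genes tested, 3 were lower: Lamb2, a laminin beta chain (77.6 and 76.5 TPM against 162 and 140 TPM), Fbln1 and Frem2. Among the 16 receptors, the laminin receptor gene Bcam (log2 fold change -1.59 ± 0.35) and Itga6, the alpha subunit of laminin-binding integrins (-0.79 ± 0.23), were lower. Sdc1, a transmembrane heparan sulphate proteoglycan, was higher (1.46 ± 0.34). In the collagen modification list Plod2 and Colgalt1 were lower and Ppib higher, and in the turnover list Mmp15 was lower. The medians of the 4 lists lay between -0.50 and -0.09, beside -0.24 over all genes. Lox, at 1247 and 96.7 TPM in the normoxic libraries, and Itga5, at 457 and 115 TPM, were higher in the library with the high fibroblast sum.

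In XEN cells Mmp2, a gelatinase gene, was the single gene of the 4 lists to be DE. In the order of the lists, 10, 13, 16 and 12 genes were tested, and 0.11% of all genes were DE on day 7. Mmp2 was at 18.5 and 5.70 TPM on day 7 against 0.0943 and 0.310 TPM in normoxia (log2 fold change 3.97 ± 0.50, adjusted p = 0.096, limma). Both normoxic values lay below the 0.4 TPM level of the filter. Tinagl1, a matricellular gene, had the highest deposited TPM of the other basement membrane genes in XEN cells. It was at 2231 and 1685 TPM on day 7 against 1315 and 815 TPM (0.91 ± 0.26, adjusted p = 0.412). Serpinh1, the collagen chaperone, and P4hb, the beta subunit of the collagen prolyl hydroxylase, had the highest deposited TPM of the collagen modification list in these cells. They were at 5017 to 6342 TPM and 2918 to 3849 TPM. Gene lengths in these TPM included introns, and these lists were not ranked per exon length.

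Genes whose pattern was most like that of the members were found by Pearson's r with the mean of the members' z-scores, as a description. Over the 18 libraries they were Gata6 (r = 0.990), Gfpt1 (0.986), Nbas (0.986), Prkcsh (0.985) and Msl3 (0.984) among 10071 genes. These values mostly restate the 3 cell types, since the 18 points share cell type in groups of 6. Of the members themselves, Lamb1 followed the mean most closely (0.99), Nid2 less so (0.41), and Lama5 ran against it (-0.71). Over the 6 libraries of a cell type the 3 most alike were Rbm41, Diaph3 and Gm14569 in ESCs (0.989 to 0.993), Il5ra, Pnpla7 and Mrpl34 in TSCs (0.992 to 0.998), and Fam151b, P4hb and Tnfrsf21 in XEN cells (0.987 to 0.994). With 6 points and many genes, values of this size are a ranking only.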

How the data were processed

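Libraries were prepared from total RNA of 18 samples with the KAPA RNA HyperPrep kit. The authors trimmed reads with cutadapt 2.4, aligned them to mm10 with STAR 2.7.5a, counted them on genes with featureCounts, computed CPM with edgeR 3.26.8, retained protein-coding genes that exceeded 0.4 CPM in 2 or more of the 6 samples, and deposited TPM in 1 table per cell type. The columns named day 0 were taken as normoxia, and 0 columns were left unmapped. TPM times gene span came out as whole multiples of 1 step per library for 98.7% to 98.9% of genes (within 0.05 of a read), so gene lengths included introns and the reads could be recovered.

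Genes above 0.4 TPM in at least 2 of 6 libraries were fitted per cell type with limma 3.58.1 (R 4.3.3) on log2(TPM + 0.5) with a mean-variance trend. The study's count test was not run because the deposited values are TPM. At the same thresholds the study reported more DE genes than this fit in every cell type on both days. The fit was tested on simulated data. With 2 libraries per condition an exact permutation test cannot go below p = 0.333. P-values measure the spread between libraries labelled as biological replicates. Alternatives that left out the TSC libraries highest in fibroblast markers, or crossed the replicate numbers, were chosen after seeing the data.

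The members and gene lists were chosen with earlier results of these data known. Named were all members, DE genes of the other lists, at most the 3 largest changes against normoxia and the most abundant 2 genes per list, and the genes most like the members. Tables and figures were made in Python 3.11.15 with numpy 2.4.6, pandas 2.3.3 and matplotlib 3.10.9.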

Additional observations from a re-analysis of the deposited data

Results flagged for a closer look

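Some members moved in opposite directions in different cell types, in that both libraries of the later or hypoxic condition lay above both of the other in 1 cell type and below both in another. The difference between cell types was not tested, because the tables were normalized separately. All values are log2 fold changes.

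On day 2 against normoxia, Lama1 was at -0.53 in ESCs and 0.24 in TSCs, where it was near 0.5 TPM. Lamc1 was at -0.37 in ESCs and 0.41 in XEN cells. On day 7 against normoxia, the type IV collagen genes lay higher in ESCs and XEN cells and lower in TSCs. Col4a1 was at 0.82 (ESCs), -0.35 (TSCs) and 0.43 (XEN cells), and Col4a2 at 0.84, -0.32 and 0.35. The nidogens followed the same directions, Nid1 at 0.42, -1.29 and 0.89 and Nid2 at 0.44, -1.40 and 0.49. Lamc1 lay at -0.27, -0.35 and 0.41. In TSCs the median of all genes was -0.18 on day 7 against normoxia. Relative to it, Col4a1, Col4a2 and Lamc1 were at -0.17, -0.14 and -0.17, and Nid1 and Nid2 at -1.11 and -1.22.

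Between day 7 and day 2, Lama1 was at 0.48 in ESCs and -0.19 in TSCs. The median of all genes in TSCs was -0.24 here. Relative to it Lama1, near 0.5 TPM in these cells, was at 0.04, and under median-ratio scaling it was at -0.05. Nid1 lay at 0.40, -1.28 and 0.28 in ESCs, then TSCs, then XEN cells, and Nid2 at 0.33, -2.05 and 0.48. The comparisons against normoxia share the normoxic libraries, and those with day 7 share the day 7 libraries.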

How the results depend on the processing

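The number of DE members was 0 in 8 of the 9 comparisons and 2 in TSCs between day 7 and day 2. In ESCs on day 7 against normoxia it was 2 with TPM on exon lengths, 2 by voom and 2 with only the 4 libraries compared. Of all genes 1.03%, 0.905% and 2.61% were DE in these fits, beside 0.758% in the main fit. In ESCs between day 7 and day 2 the number was 2 on exon lengths, 2 by voom and 1 without the mean-variance trend. The shares of all genes were 0.233%, 0.212% and 0.212%, beside 0.179% in the main fit. In TSCs between day 7 and day 2 the number was 1 with median-ratio scaling and 1 at an adjusted p of 0.05. There 13.7% and 7.39% of all genes were DE, beside 16.2% in the main fit. With some single libraries left out, the number of DE members rose in ESCs in both day 7 comparisons. It also rose in TSCs and XEN cells on day 7 against normoxia, and fell in TSCs between day 7 and day 2. Where it changed, the number of DE genes over the whole table moved in the same direction. The fit without both TSC libraries highest in fibroblast markers leaves a single library in normoxia and on day 2. It is given as log2 fold changes only. The labels give no pairing beyond the replicate number. As a check on it, the offset of each gene in replicate 1 from its condition mean was compared between conditions of a cell type. These offsets, rather than the expression levels, correlated between -0.464 and 0.272. The replicate block left the number of DE members at 2 in TSCs between day 7 and day 2 and at 0 elsewhere, while DE genes on day 7 against normoxia went from 93 to 18 in ESCs, from 48 to 13 in TSCs and from 12 to 43 in XEN cells. With the numbers crossed, the replicate block gave 60 DE genes with 1 member (Col4a1) in ESCs between day 7 and day 2, 326 with 0 members in TSCs on day 2 and 1 with 0 members in XEN cells between day 7 and day 2. Of the single-gene values under alternatives, 64 of 1587 had the sign opposite to the main value, all for changes that had not been called. The cause of these differences was not tested. The least counted member, Lama1 in TSCs, had 162 reads or more per library, and how far depth limits its values was not tested.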

Other observations

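In the TSC libraries, the 10 primitive endoderm markers, 9 of which were listed, summed to 306 and 96.7 TPM in normoxia, 57.9 and 210 TPM on day 2, and 354 and 479 TPM on day 7. The 6 listed pluripotency markers summed to 842 and 874 TPM, 1268 and 1295 TPM, and 294 and 252 TPM in the same order, with Sox2 at 660 and 714 TPM in normoxia and 172 and 129 TPM on day 7 (log2 fold change -2.20, adjusted p = 0.018, limma). Elf5, a trophoblast stem cell regulator, was at 60.4 and 56.6 TPM in normoxia and 18.8 and 14.7 TPM on day 7 (log2 fold change -1.78, adjusted p = 0.043). Between day 7 and day 2 in TSCs, the pluripotency factors Nanog (-1.96), Esrrb (-1.91), Zfp42 (-1.16) and Sox2 (-2.85) were DE and lower on the log2 scale, as were the primitive endoderm markers Amn (-1.68) and Gata4 (-1.60), and Pdgfra was higher (1.55). Of the markers of differentiated trophoblast, Ascl2 (-1.16) and Gcm1 (-1.38) were lower and Prl3d1, a hormone gene of trophoblast giant cells, was higher (2.15). In ESCs Hand1, a trophoblast and mesoderm transcription factor, was at 12.7 and 8.32 TPM on day 7 against 2.16 and 2.07 TPM in normoxia (log2 fold change 2.04, adjusted p = 0.022).

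The ratio of Lamc1 to Lamb1 per exon length was 3.42 to 5.06 in ESCs, 0.784 to 1.54 in TSCs and 2.09 to 2.81 in XEN cells. With the longest transcript as the length it was 2.17 to 3.201, 0.496 to 0.973 and 1.321 to 1.78, so that which gene lay higher in TSCs depended on the length used, while Lamc1 lay above Lamb1 in ESCs and XEN cells with both lengths.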
